A study of Mus musculus with 8 samples.

Results

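The comparison described here is the interaction of genotype and oxidative stress, that is, the response to H2O2 in IPO13-/- mESCs minus the response to H2O2 in IPO13+/+ mESCs, measured for every gene. It used 8 of the 8 libraries of the series, 2 in each of 4 groups, and no library was chosen by its values. The cells were mouse embryonic stem cells derived from day 5 blastocysts of a mixed 129 x C57BL/6 background and grown without feeder cells in the presence of LIF, a cytokine that keeps them pluripotent. The IPO13+/+ and IPO13-/- groups were either left untreated or exposed to 125 µM H2O2 for 1 h and then left to recover for 2 h. The knockout is carried by an established line and was not induced in the experiment. The labels do not say whether the 2 libraries of a group came from separate cultures, and the p-values therefore measure the spread between these libraries, which may be technical. A gene is called "higher" below when its response was more positive in IPO13-/- cells (a larger rise or a smaller fall), and "lower" when it was more negative.

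Importin-13 is a nuclear transport receptor of the importin beta family that carries some proteins into the nucleus and others out of it. H2O2 oxidises protein thiols and damages DNA, and cells answer with induction of antioxidant genes through NRF2, of p53 target genes and of immediate early genes such as the AP-1 subunits FOS and JUN. Because an interaction on a log2 scale equals the genotype difference in treated cells minus the genotype difference in untreated cells, the same interaction can arise from a gap before stress that closes, from a gap that appears only under stress, or from both.

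Ipo13 itself (ENSMUSG00000033365, chr4:117894486-117914999, minus strand, GRCm38) stood at 70.3 and 68.3 CPM (counts scaled to library size with TMM factors) in untreated IPO13+/+ libraries and at 72.4 and 69.3 after H2O2. In IPO13-/- libraries it stood at 25.9 and 25.0 untreated and at 24.9 and 25.9 after H2O2. All 4 IPO13-/- libraries lay below all 4 IPO13+/+ libraries and the interaction of Ipo13 was -0.039 on the log2 scale (FDR = 0.89). The libraries held between 60397877 and 73789079 counts. The summed level of 6 stem cell markers (Pou5f1, Sox2, Nanog, Zfp42, Esrrb and Dppa5a) lay between 4430 and 5520 CPM in the 8 libraries. Of 12 fibroblast markers, whose sum was 91.5 to 114 CPM in IPO13+/+ and 232 to 247 CPM in IPO13-/- libraries, 4 (Col3a1, Dcn, Lum and Postn) had a mean of under 10 counts. Much of the sum came from Vim, with a mean of 8990 counts. The genotype difference of Vim was 1.17 in untreated and 1.5 in treated cells (log2). The 12 neural markers summed to between 491 and 600 CPM and the 7 blood cell markers to between 14.8 and 24.2 CPM, with Dcx, Neurog2, Fabp7, Ptprc and Lyz2 among those under 10 counts. In bulk libraries, fewer cells of a type and less RNA per cell cannot be told apart.

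The response to H2O2 differed between the genotypes for 527 of 19424 genes tested (2.71%; edgeR's quasi-likelihood test, Benjamini-Hochberg FDR below 0.05). Of these, 390 were higher (2.01% of the genes tested) and 137 lower (0.705%). Most differences were modest. The median size among the called genes was 0.36 on the log2 scale, 385 were under 0.5, 114 were between 0.5 and 1, and 28 reached 2-fold (0.144% of the genes tested), 15 higher and 13 lower. The depth of the libraries bears on this count, because no gene with a mean of under 10 counts was called by edgeR or DESeq2 (0 of 4703, of which 94 had an unadjusted p below 0.05 in edgeR), while 0.721% were called between 10 and 100 counts, 3.89% between 100 and 1000, 4.27% between 1000 and 10000 and 5.71% at 10000 or more.

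The share of higher calls depended on the scaling of the libraries. It was 74.0% with TMM factors, 65.7% with relative log expression factors and 30.8% with library totals alone, where 209 genes were higher and 469 lower. The median interaction of all tested genes was 0.017 with TMM factors and -0.053 with library totals. Of the 105 called genes named by rule, none changed sign under these scalings or without any 1 library, which was in part fixed by the choice, since the rule took small FDR and, for the largest interactions, the same sign without each library.

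The 2 responses could be read side by side for the called genes. The largest class, 180 genes, had no called response in IPO13+/+ cells and a rise in IPO13-/- cells, and all of them were higher. A further 161 genes rose in both genotypes, 142 of them more in IPO13-/- cells. There were 64 genes that fell only by the IPO13-/- test, 45 that fell only by the IPO13+/+ test, 28 that rose only by the IPO13+/+ test and 21 that fell in both. In 21 genes a fall in IPO13+/+ cells stood against a rise in IPO13-/- cells, in 6 the reverse held, and 1 had no called response in either. Over all tested genes, 25.3% responded in IPO13+/+ cells and 29.4% in IPO13-/- cells at an FDR below 0.05.

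Whether the difference lay in the untreated or in the treated level was read from the genotype difference at each level, which passed an FDR below 0.05 for 38.2% of all tested genes without treatment and for 36.6% after H2O2. Since the interaction is made of these 2 differences, the classes are a description of the called genes. In 142 genes only the untreated level differed, and in 100 both levels differed with the same sign and the gap was narrower after H2O2, so that for 242 genes (45.9% of those called) the larger gap was that of untreated cells. In 141 genes only the treated level differed, and in 69 the gap was wider after H2O2, together 210 genes (39.8%). In the other 75 genes (14.2%) the genotypes differed at both levels with opposite signs. Here and below, "only" means that the gap at the other level did not pass the FDR threshold. A gap of or by one level means the larger gap. A smaller one of the same sign could remain at the other level, as could an opposite one that missed the threshold. Scn4a, of the treated level only, went from 1.03 in untreated to -1.57 in treated cells, and Creb3l3, of the untreated level only, from -0.72 to 0.4.

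The higher and the lower genes differed in where their gap lay. Of the 390 higher genes, 252 were lower in untreated IPO13-/- cells and 47 were higher there, and after H2O2 199 were higher and 86 lower in IPO13-/- cells. Their median genotype difference went from -0.23 to 0.12 on the log2 scale, with a median response of 0.037 in IPO13+/+ and 0.41 in IPO13-/- cells. Of the 137 lower genes, 65 were higher and 22 lower in untreated IPO13-/- cells, and after H2O2 14 were higher and 86 lower. Their median genotype difference went from 0.20 to -0.28. By a stricter reading, in which the gap at one level had to be at least 2-fold that at the other on the log2 scale, 193 genes belonged to the untreated level, 170 to the treated level, and 164 to neither.

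**Figure D1:**
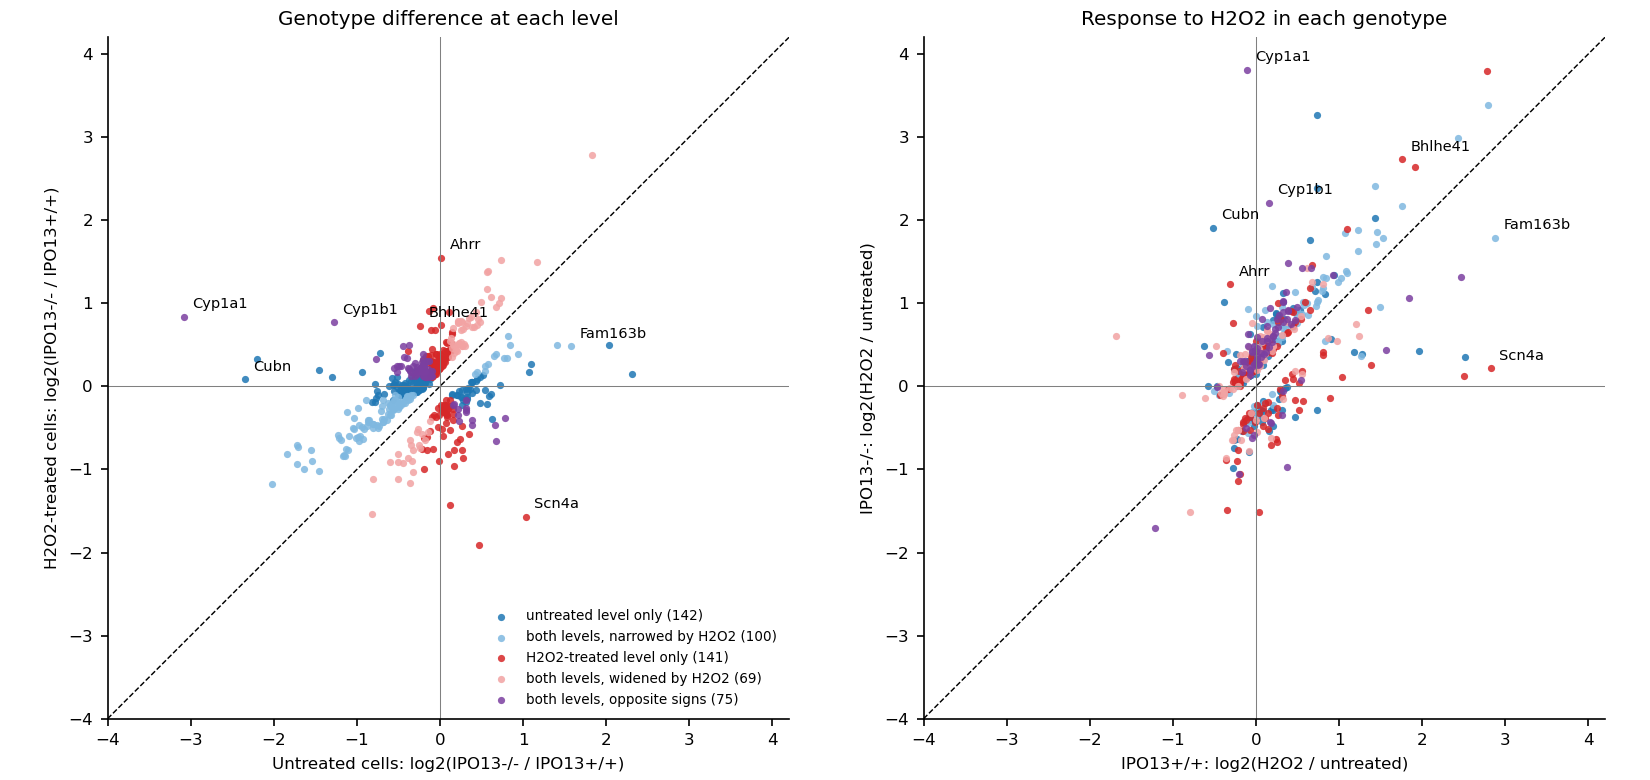
Each point is 1 of the 527 called genes, coloured by the level at which the genotypes differed (number of genes in the key). The left plot shows the genotype difference (log2) in untreated cells on the x axis and in H2O2-treated cells on the y axis, and the right plot the response to H2O2 (log2) in IPO13+/+ cells on the x axis and in IPO13-/- cells on the y axis. The dashed line marks equal values, so that the 390 higher genes lie above it and the 137 lower genes below it, with Cyp1a1 farthest from it.

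The largest interaction was that of Cyp1a1 (ENSMUSG00000032315), which encodes a cytochrome P450 that oxidises polycyclic aromatic compounds and is the classic target of the aryl hydrocarbon receptor (AhR). The AhR is a ligand-activated transcription factor that pairs with ARNT and binds DNA at elements with the core GCGTG. Of the 15 tested genes of the AhR pathway 4 were called, all higher, and the median interaction of the list was 0.21 against 0.017 for all tested genes. The 250 bases before the RefSeq transcription start (GRCm38.p6) of these 4 genes are shown because Cyp1a1 had the largest interaction in the comparison and the other 3 are the called members of the same pathway, with GCGTG or its reverse complement CACGC in capitals, each written 5′ to 3′ on the strand of the gene. They lie at chr9:57697363-57697612 (plus strand), chr17:79715062-79715311 (minus strand), chr13:74292332-74292581 (minus strand) and chr3:65528197-65528446 (plus strand), respectively.
Cyp1a1: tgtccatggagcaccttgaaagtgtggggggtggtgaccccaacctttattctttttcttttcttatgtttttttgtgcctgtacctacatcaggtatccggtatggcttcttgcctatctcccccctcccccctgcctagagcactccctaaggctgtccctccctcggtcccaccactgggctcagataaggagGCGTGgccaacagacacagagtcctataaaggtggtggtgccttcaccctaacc
Cyp1b1: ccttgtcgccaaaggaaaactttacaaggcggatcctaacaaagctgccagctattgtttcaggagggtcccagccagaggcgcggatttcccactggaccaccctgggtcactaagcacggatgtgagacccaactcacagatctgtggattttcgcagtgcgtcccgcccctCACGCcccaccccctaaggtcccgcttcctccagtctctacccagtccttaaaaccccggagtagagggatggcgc
Ahrr: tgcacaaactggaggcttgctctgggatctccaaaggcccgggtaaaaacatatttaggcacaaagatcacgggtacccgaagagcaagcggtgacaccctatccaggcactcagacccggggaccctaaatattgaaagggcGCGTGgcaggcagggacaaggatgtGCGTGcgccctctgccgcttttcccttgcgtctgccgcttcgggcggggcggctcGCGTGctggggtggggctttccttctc
Tiparp: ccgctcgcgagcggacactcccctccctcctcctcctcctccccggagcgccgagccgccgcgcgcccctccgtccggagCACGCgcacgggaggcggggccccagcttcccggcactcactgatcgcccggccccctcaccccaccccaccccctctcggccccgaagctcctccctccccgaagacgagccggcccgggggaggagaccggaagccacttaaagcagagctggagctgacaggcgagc

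The letters GCGTG were present in all 4 windows, 3 times in Ahrr and 1 time in each of the others. They are common in promoters of expressed genes. Counting both strands and any listed start, 30.9% of 27025 symbols held them, as did 52.0% of 8754 tested genes with a mean of at least 100 counts and 51.5% of 396 called genes with a listed promoter. A match is a description of these letters and not of binding.

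Cyp1a1 stood at 14.6 and 17.1 CPM in untreated IPO13+/+ libraries and at 14.4 and 15.0 CPM after H2O2. In IPO13-/- libraries it stood at 1.82 and 1.95 CPM untreated and at 27.0 and 25.7 CPM after H2O2. The untreated IPO13-/- libraries were thus the lowest of the 8 and the treated IPO13-/- libraries the highest, with no overlap. The interaction was 3.92 ± 0.12 (log2, SE; FDR = 9.5e-19), made of a genotype difference of -3.08 before and 0.84 after stress. Cyp1b1, a related P450, showed the same order, from 0.964 and 1.22 CPM in untreated to 5.10 and 4.95 CPM in treated IPO13-/- libraries, against 2.56 to 2.97 CPM over the 4 IPO13+/+ libraries. Its interaction was 2.05 ± 0.16 (FDR = 1e-08).

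Ahrr, which encodes a repressor that competes with the AhR, differed in the treated level only. It lay between 1.06 and 1.55 CPM in IPO13+/+ libraries, at 1.40 and 1.55 CPM in untreated and at 3.77 and 3.09 CPM in treated IPO13-/- libraries. The treated IPO13-/- libraries were above the other 6, and the interaction was 1.53 ± 0.21 (FDR = 4.3e-05). Tiparp, an ADP-ribosyltransferase that restrains AhR activity, differed in the untreated level only, with 73.2 and 68.3 CPM in untreated IPO13-/- libraries and 90.6 to 101 CPM in the other 6 (interaction 0.39 ± 0.064, FDR = 0.00044). Tiparp was outside the rule for named genes and is named after its values were seen. After H2O2, 3 of the 4 genes thus stood higher in IPO13-/- than in IPO13+/+ cells, and for Tiparp no difference was detected (-0.0078, FDR = 0.95).

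**Figure D2:**
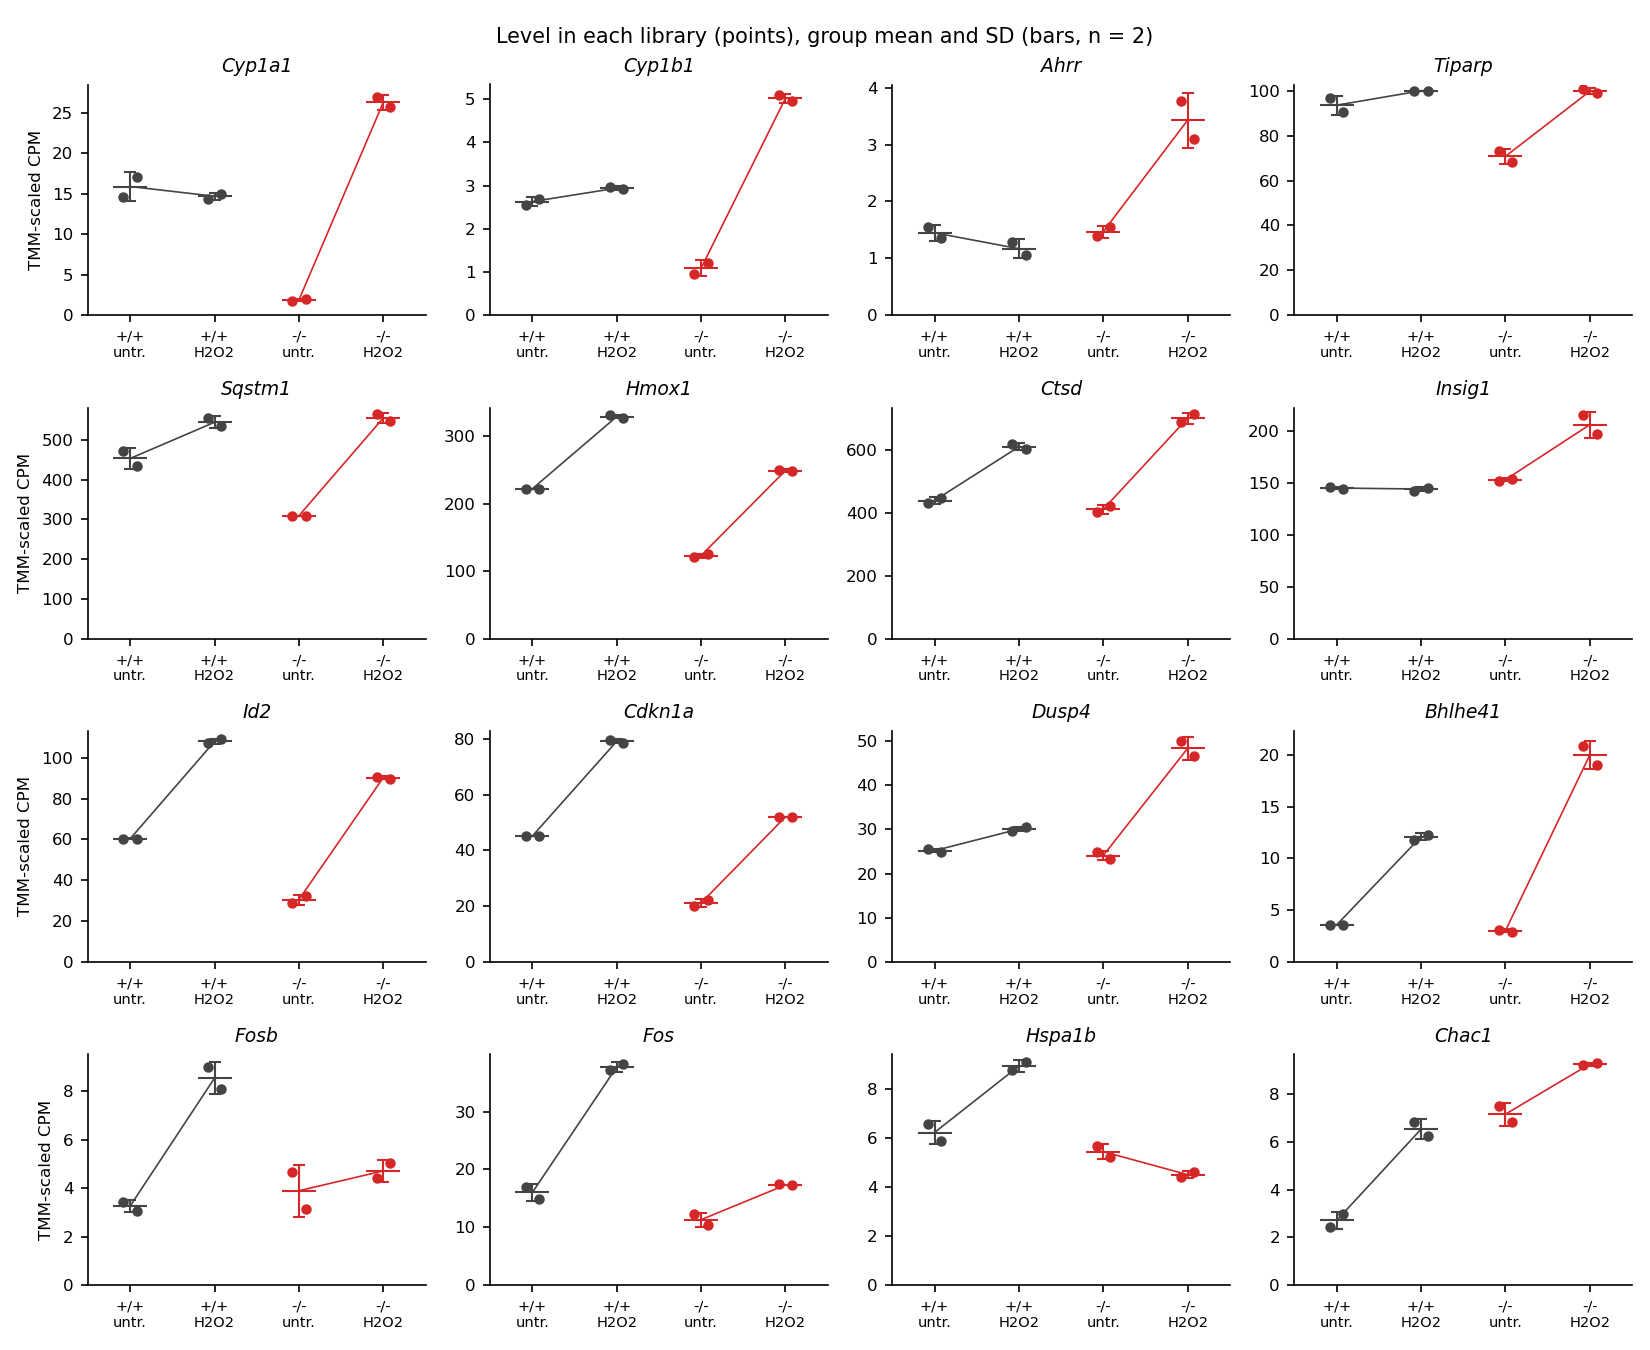
The TMM-scaled CPM of 16 called genes is plotted on a linear axis from 0 for each of the 8 libraries, in black for IPO13+/+ and red for IPO13-/-, untreated (untr.) and after H2O2. Points are libraries, and the bars give the mean and SD of 2 libraries, joined by a line within a genotype. Cyp1a1 rises from 1.82 and 1.95 to 27.0 and 25.7 CPM in IPO13-/- cells alone, whereas Fosb and Hspa1b are highest in treated IPO13+/+ cells.

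Among 33 tested genes of autophagy and the lysosome, 12 were called and all were higher, with a list median of 0.16. The called members included lysosomal hydrolases (Ctsl, Ctsd, Ctsb and Hexa), the membrane protein Lamp1, the autophagosome proteins Map1lc3b, Gabarap and Gabarapl1, the adaptor Sqstm1 and Uvrag. For 7 of the 12 the gap was that of the treated level, for 3 that of the untreated level and for 2 the signs were opposite. Ctsd, the aspartic protease cathepsin D, had 431 and 448 CPM in untreated IPO13+/+ and 402 and 421 CPM in untreated IPO13-/- libraries, and 618 and 602 CPM against 689 and 713 CPM after H2O2. It rose in both genotypes, to a higher level in IPO13-/- cells (interaction 0.30 ± 0.055, FDR = 0.0018). Ctsl, the cysteine protease cathepsin L, had an interaction of 0.47 ± 0.056 (FDR = 9.6e-06) and Hexa, a subunit of hexosaminidase, one of 0.38 ± 0.061 (FDR = 0.00034). Ctsd and other members beyond the first 3 of each list are outside the rule for named genes and are named after their values were seen. The number of called members was 3 and 6 without the untreated IPO13-/- libraries (replicate 1 and 2), 6 and 5 without the treated IPO13+/+ libraries, 8 and 5 without the treated IPO13-/- libraries and 12 without either untreated IPO13+/+ library.

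The E-box TCACGTGA, a palindrome bound by TFEB and TFE3, regulators of lysosomal genes, and by other basic helix-loop-helix proteins, was present in the 250-base window of 22 of 396 called genes (5.56%). The share was 7.12% among 295 higher genes, 0.990% among 101 lower genes, 1.92% among tested genes with a mean of at least 100 counts and 0.907% among all symbols. Among the called genes with these letters were the lysosomal genes Ctsd, Ctsa, Cln3, Mfsd1, Gla, Dpp7 and Ifi30, of which Ctsd alone was in the list of autophagy and lysosome. In that list the E-box was in 3 of 25 tested members with a listed promoter and in 1 of 9 called ones. Other motifs were scanned as well. The AP-1 site TGACTCA was in 7.12% of higher, 2.97% of lower and 3.67% of tested genes with a mean of at least 100 counts. For the GC box GGGCGG of SP and KLF factors these shares were 71.9%, 57.4% and 66.8%. The E-box and the lysosomal genes above were picked after the values were seen, and the shares are a description. Windows around the letters are given for 4 of them to show the element and its surroundings, with the E-box in capitals, 5′ to 3′ on the strand of the gene, at chr7:142387899-142387946 (minus strand), chr2:164833740-164833772 (plus strand), chr7:126583331-126583378 (minus strand) and chr3:67582677-67582724 (plus strand), respectively.
Ctsd: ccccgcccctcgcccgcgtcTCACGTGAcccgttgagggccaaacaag
Ctsa: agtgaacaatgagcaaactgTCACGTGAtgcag
Cln3: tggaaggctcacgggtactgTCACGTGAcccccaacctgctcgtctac
Mfsd1: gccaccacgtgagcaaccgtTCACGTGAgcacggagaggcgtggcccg

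Mfsd1, a lysosomal membrane transporter, and Ctsa, the protective protein cathepsin A, were among the 5 genes with the smallest FDR in which the gap widened. Mfsd1 was level in IPO13+/+ libraries at 130 to 132 CPM, and stood at 179 and 173 CPM in untreated and 241 and 247 CPM in treated IPO13-/- libraries (interaction 0.46 ± 0.056, FDR = 1.1e-05). Ctsa went from 105 and 101 to 117 and 115 CPM in IPO13+/+ and from 109 and 116 to 174 CPM in both treated IPO13-/- libraries (0.46 ± 0.060, FDR = 3.4e-05).

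Of 33 tested genes of the NRF2 and antioxidant response, 4 were called, all higher (Sqstm1, Hmox1, Ftl1 and Nfe2l2), and all 4 differed by the untreated level. The count was 2 with limma-voom, DESeq2, relative log expression factors, library totals or filterByExpr, 15 and 10 without the untreated IPO13+/+ libraries, 3 without IPO13-/- H2O2 replicate 2 and 2 without any of the other 5. The list median was 0.16, made of a median genotype difference of -0.22 in untreated and -0.053 in treated cells. In untreated IPO13-/- cells 23 of the 33 genes were lower and 3 higher than in IPO13+/+ cells, and after H2O2 11 were lower and 6 higher. Sqstm1, the autophagy adaptor p62 that also releases NRF2 from KEAP1, stood at 472 and 433 CPM in untreated IPO13+/+ and 309 CPM in both untreated IPO13-/- libraries. After H2O2 the 4 libraries lay between 534 and 564 CPM, so that the gap was no longer detected (interaction 0.58 ± 0.058, FDR = 5.3e-07). Hmox1, the heme oxygenase, went from 222 CPM in both libraries to 331 and 327 CPM in IPO13+/+ cells and from 121 and 125 to 250 and 248 CPM in IPO13-/- cells. It kept a gap of -0.40 after a gap of -0.86 (interaction 0.45 ± 0.055, FDR = 9.6e-06). Bach1, which encodes a repressor of Hmox1 and other heme-regulated genes, was also higher and differed in the untreated level only, with 60.5 and 62.1 CPM in untreated IPO13-/- against 94.9 and 81.5 CPM in untreated IPO13+/+ libraries (0.64 ± 0.074, FDR = 5.8e-06).

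The p53 targets had 10 called members of 26 tested, all higher, with a list median of 0.19. In 8 of the 10 the gap was larger in untreated cells, and of these only Bbc3 had no called gap after H2O2. The list responded in both genotypes, with a rise in 24 of 26 in IPO13+/+ and 23 of 26 in IPO13-/- cells and a median response of 0.80 and 0.92. In untreated IPO13-/- cells 18 of the 26 were lower and 2 higher, and after H2O2 13 were lower and 4 higher. Cdkn1a, the cyclin-dependent kinase inhibitor p21, stood at 45.1 ± 0.128 CPM (SD, n = 2) in untreated and 79.6 and 78.6 CPM in treated IPO13+/+ libraries. In IPO13-/- libraries it stood at 21.1 ± 1.55 CPM (SD, n = 2) and at 52.1 and 52.0 CPM. The 2 genotypes did not overlap at either level, and the rise on the log2 scale was 0.81 in IPO13+/+ and 1.31 in IPO13-/- cells (interaction 0.50 ± 0.070, FDR = 7.1e-05). Plk2, a polo-like kinase, showed the same order on the log2 scale (0.40 ± 0.067, FDR = 0.00055). In CPM the gain of both genes was larger in IPO13+/+ cells, and 6 of the 10 called p53 targets turned sign on that scale (Cdkn1a, Plk2, Phlda3, Perp, Btg2 and Trp53inp1). The other called members were Plk3, Phlda3, Mdm2, Perp, Bbc3, Btg2, Tnfrsf10b and Trp53inp1, of which Tnfrsf10b, a TRAIL receptor, differed by the treated level. The count of 10 was 3 with limma-voom, 5 with DESeq2 and 4 with library totals, and lay between 2 and 13 without 1 library, with 2 without either untreated IPO13-/- library, 3 without either treated IPO13+/+ library and 5 and 4 without the treated IPO13-/- libraries.

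The immediate early genes were split. Of 36 tested, 9 were higher and 4 lower, with a list median of 0.11. Fosb and Fos, which encode AP-1 subunits, were lower. Fosb stood at 3.44 and 3.07 CPM in untreated and at 9.01 and 8.07 CPM in treated IPO13+/+ libraries, and at 4.65 and 3.12 CPM and 4.40 and 5.03 CPM in IPO13-/- libraries. The treated IPO13+/+ libraries were above the other 6 (interaction -1.14 ± 0.17, FDR = 0.00016), and the response in IPO13-/- cells was 0.26 (FDR = 0.13). Fos went from 17.0 and 14.9 to 37.1 and 38.2 CPM in IPO13+/+ and from 12.2 and 10.4 to 17.4 and 17.3 CPM in IPO13-/- libraries (-0.62 ± 0.096, FDR = 0.00021). Jun, which encodes their partner, rose in both genotypes but less in IPO13-/- cells (-0.40 ± 0.076, FDR = 0.0023). Fosb and Jun differed in the treated level only, whereas Fos was lower in untreated IPO13-/- cells too, and its gap widened from -0.5 to -1.12. Cyr61, a matricellular protein gene, was the fourth lower member and was higher in untreated IPO13-/- cells, with 57.8 and 57.5 CPM against 33.6 and 34.1 CPM (-0.43 ± 0.065, FDR = 0.00019). Fos and Jun are outside the rule for named genes and are named after their values were seen.

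The higher members of the immediate early list were the transcription factor genes Maff, Klf10, Klf6, Nr4a1 and Fosl2, the phosphatase gene Dusp5, and Arc, Gadd45g and Btg2. Maff, a small MAF protein that pairs with NRF2 and other factors, stood at 23.0 and 22.4 CPM in untreated IPO13-/- against 34.1 and 32.9 CPM in untreated IPO13+/+ libraries. After H2O2 all 4 libraries lay between 39.7 and 41.3 CPM (interaction 0.58 ± 0.069, FDR = 8.5e-06). Klf6 behaved in the same way, at 69.3 and 66.4 against 95.9 and 92.1 CPM untreated and 124 to 131 CPM after H2O2 (0.43 ± 0.061, FDR = 7.7e-05). Within the AP-1 family Fosl2 was therefore higher where Fosb, Fos and Jun were lower, and the interaction of Fosl2 was 0.49 ± 0.12 (FDR = 0.019). The list had 13 calls in all, against 5 without IPO13-/- untreated replicate 1, 8 without IPO13-/- untreated replicate 2 and 9 to 14 without any of the other 6.

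Cholesterol and fatty acid synthesis had 10 called members of 31, all higher, with a list median of 0.17. None of the 31 genes rose in IPO13+/+ cells, where the median response was -0.10, and 10 rose in IPO13-/- cells, where it was 0.082. The called genes included enzymes of sterol synthesis (Hmgcs1, Fdft1, Sqle, Cyp51, Sc4mol and Sc5d), the sterol transporter gene Stard4 and Insig1, which retains the SREBP activator in the endoplasmic reticulum. Insig1 was level in 6 libraries, between 142 and 154 CPM, and stood at 215 and 197 CPM in treated IPO13-/- cells (interaction 0.44 ± 0.061, FDR = 5.9e-05). Cyp51, the lanosterol demethylase, went from 84.3 and 88.8 to 118 and 113 CPM in IPO13-/- cells and stayed between 101 and 106 CPM in IPO13+/+ libraries (0.46 ± 0.061, FDR = 3.7e-05). Over the 10 called genes, 5 differed by the untreated level, 4 by the treated level and 1 with opposite signs. The count was 4 and 5 without the untreated IPO13-/- libraries, 6 without IPO13+/+ H2O2 replicate 1 or IPO13-/- H2O2 replicate 1, and 8 to 13 without any of the other 4.

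Genes that respond to growth factor and cytokine signals followed. Of 22 FGF-ERK feedback genes, 5 were higher and none lower (list median 0.13). Dusp4, which encodes a nuclear phosphatase of ERK, stood between 23.3 and 25.5 CPM in the 4 untreated libraries, at 29.7 and 30.5 CPM in treated IPO13+/+ and at 50.1 and 46.6 CPM in treated IPO13-/- cells, an interaction of the treated level only (0.75 ± 0.075, FDR = 4.8e-07). Dusp5, Phlda1, Spry1 and Spry2 were the other 4. The count was 3 with limma-voom or library totals, 5 and 8 without the untreated IPO13+/+ libraries and 3 without any of the other 6. Of 25 NF-kappaB pathway genes, 4 were higher and none lower (list median 0.12), against 2 with library totals, 1 and 2 without the untreated IPO13-/- libraries, 2 without IPO13+/+ H2O2 replicate 2 and 3 to 6 without any of the other 5. Among them Nfkbia, the inhibitor IκBα, differed by the untreated level (37.6 and 34.9 CPM against 60.5 and 56.8 CPM, interaction 0.52 ± 0.069, FDR = 3.7e-05). Relb, Icam1 and Tnfaip3 differed by the treated level, and Relb fell in IPO13+/+ and rose in IPO13-/- cells (0.51 ± 0.081, FDR = 0.00034).

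Of 22 NODAL and BMP targets, 4 were higher and 2 lower. Id2 and Id1, inhibitors of basic helix-loop-helix transcription factors, were the higher genes with the smallest FDR. Id2 stood at 60.2 and 60.4 CPM in untreated and 107 and 109 CPM in treated IPO13+/+ libraries and went from 28.7 and 32.2 to 90.8 and 89.8 CPM in IPO13-/- cells. A gap of -0.99 thus narrowed to -0.26 (interaction 0.73 ± 0.068, FDR = 1.4e-07). Id1 crossed over, from 26.0 and 25.9 CPM untreated to 52.5 and 53.3 CPM after H2O2, against 32.9 and 39.0 and then 44.7 and 44.9 CPM in IPO13+/+ cells (0.71 ± 0.082, FDR = 5.3e-06). Bmp4, a ligand of the pathway, fell less in IPO13-/- cells (0.47 ± 0.065, FDR = 5.1e-05). Smad6, an inhibitory SMAD, was lower and changed order, from 5.19 ± 0.0226 CPM (SD, n = 2) to 2.49 and 2.52 CPM in IPO13-/- cells, with 3.13 to 4.05 CPM in the IPO13+/+ libraries (-0.85 ± 0.14, FDR = 0.00062). Inhbb, an activin subunit gene, was the other lower member and Bambi the other higher one.

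Of 28 naive pluripotency genes, 6 were higher (Nr0b1, Tbx3, Klf2, Esrrb, Tcl1 and Zfp42) and Prdm14 was lower, and the 6 had interactions between 0.21 and 0.36. There were 2 higher genes with limma-voom, library totals or filterByExpr, 1 without either untreated IPO13-/- library, 2 or 3 without any treated library, and 7 and 10 without the untreated IPO13+/+ libraries. Prdm14, a repressor of differentiation genes, fell in both genotypes, from 42.7 and 43.3 to 18.4 CPM in both IPO13+/+ libraries and from 48.9 and 51.1 to 14.3 and 16.1 CPM in IPO13-/- libraries (interaction -0.49 ± 0.079, FDR = 0.00034). Of 18 trophectoderm genes, 4 were higher (Cldn4, Gata2, Lgals3 and Tead4), all by the untreated level, with 1 call without IPO13-/- untreated replicate 1 and 3 to 5 without any other library, and the summed level of the list was 452 to 463 CPM in untreated IPO13+/+ and 308 to 320 CPM in untreated IPO13-/- libraries. Gata2, a transcription factor, stood at 4.19 and 4.45 CPM in untreated IPO13-/- against 6.54 and 6.35 CPM in untreated IPO13+/+ cells and between 7.52 and 9.19 CPM in the 4 treated libraries (0.68 ± 0.12, FDR = 0.0012). Of 23 primitive endoderm genes 2 were higher (Cubn and Apoe), of which DESeq2 called Apoe alone. Cubn, an endocytic receptor, lay at 0.198 and 0.370 CPM in untreated IPO13-/- cells, which is 15 and 23 counts, and at 0.868 to 1.74 CPM in the other 6 libraries (2.43 ± 0.35, FDR = 9.8e-05). Vim and Thy1 were the 2 called of 12 fibroblast markers, whose summed level was given above, Tubb3 the only one of 12 neural markers, and none of 7 blood cell markers or 16 genes of the two-cell-like state were called by edgeR or DESeq2, with 1 in each list at an unadjusted p below 0.05. Their part in these results was not tested.

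**Figure D3:**
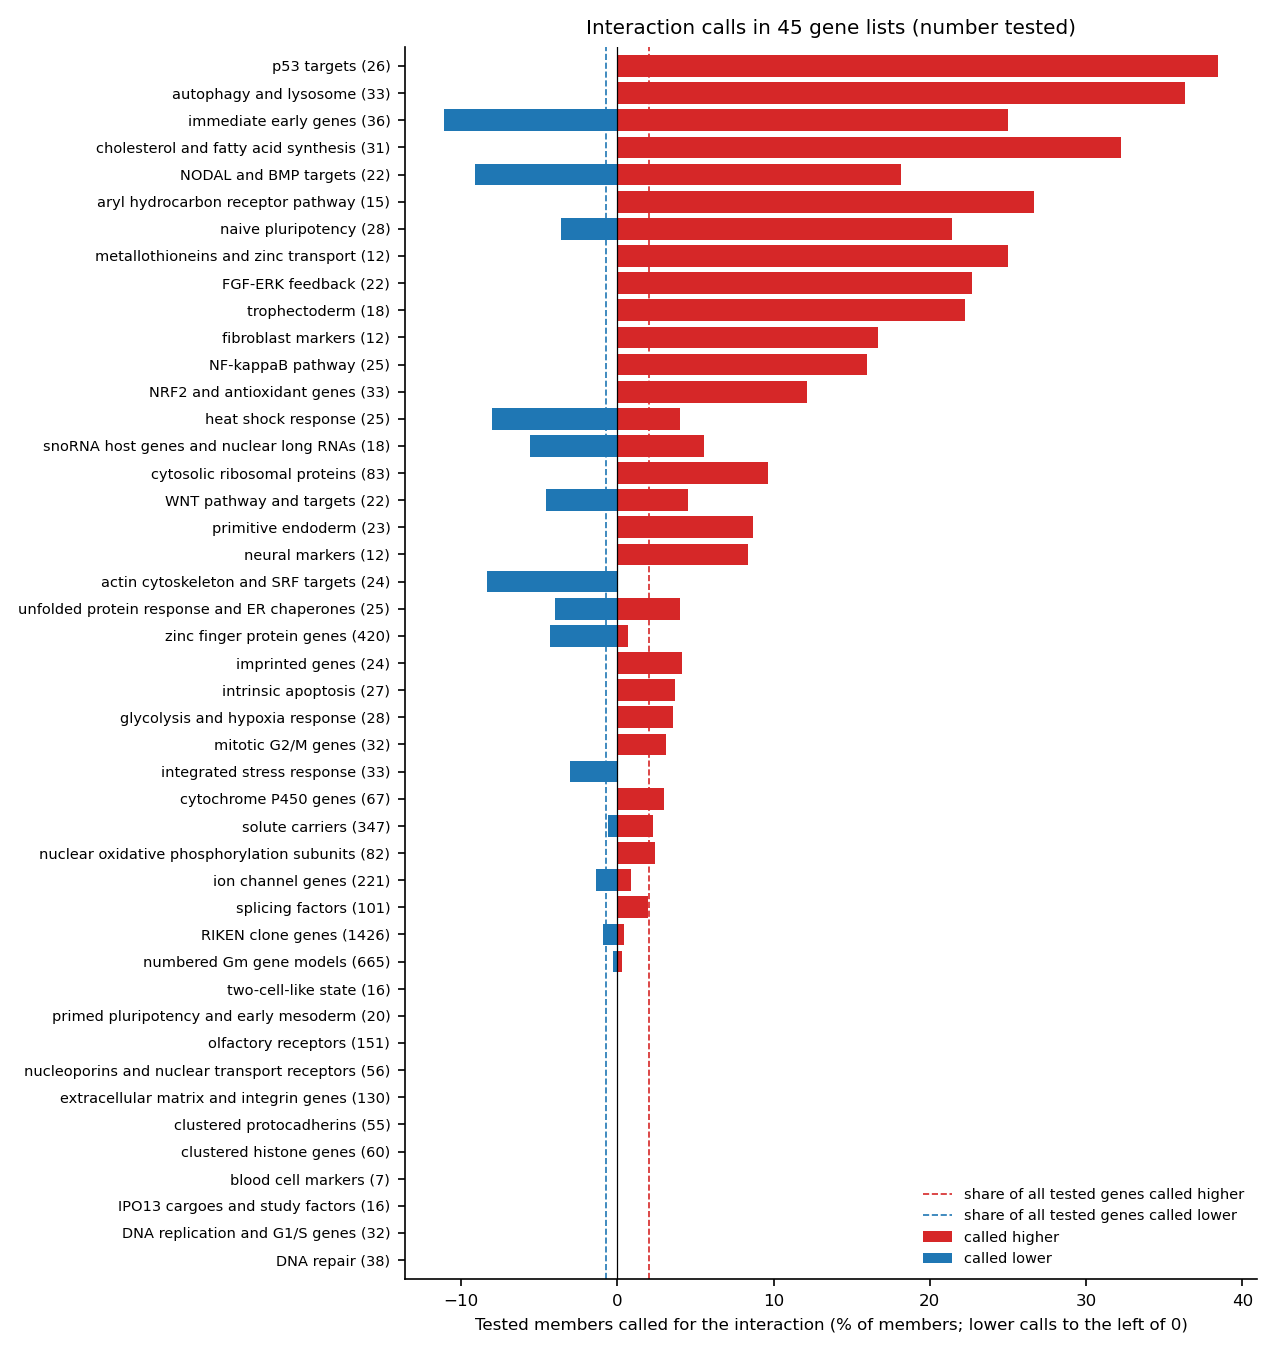
For each of 45 gene lists (number of tested members in brackets), the bar gives the percentage of members called higher in red to the right of 0 and called lower in blue to the left. The dashed lines mark the shares over all tested genes, 2.01% higher and 0.705% lower. The p53 targets, the autophagy and lysosome genes and the cholesterol and fatty acid synthesis genes extend farthest to the right, with no lower calls.

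Among the lists, zinc finger protein genes held the most lower calls, and this list was also 1 of the largest. Of 420 tested, 18 were lower and 3 higher, and the list median was -0.11. The share called was 5%, against 2.71% of all tested genes, of which 0.705% were lower and 2.01% higher. A mean of at least 100 counts was reached by 362 members, and 3.89% to 5.71% of all genes in that range were called. The median genotype difference of the list went from 0.034 in untreated to -0.082 in treated cells, with 132 genes lower and 49 higher in treated IPO13-/- cells. Zbtb26 had 11.2 and 10.3 CPM in untreated and 13.1 and 13.7 CPM in treated IPO13+/+ libraries, and 12.7 CPM in both untreated and 10.8 and 9.26 CPM in treated IPO13-/- libraries (interaction -0.65 ± 0.10, FDR = 0.00023). It rose in IPO13+/+ and fell in IPO13-/- cells. Zfp174 was near 1 CPM in 6 libraries (0.924 to 1.23 CPM) and at 0.371 and 0.453 CPM in treated IPO13-/- cells (-1.55 ± 0.28, FDR = 0.0012). Zfp397 likewise had its lowest values, 10.8 CPM in both libraries, in treated IPO13-/- cells (-0.56 ± 0.087, FDR = 0.00023). With library totals 57 of the list were lower and 1 higher, with a median of -0.18. With limma-voom 6 were lower and 1 higher, and the 21 calls in all became 2 and 6 without the untreated IPO13-/- libraries, 5 and 4 without the treated IPO13+/+ libraries, 11 and 10 without the treated IPO13-/- libraries and 38 and 33 without the untreated IPO13+/+ libraries.

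Of 25 heat shock genes Hspa1b and Dnajb4 were lower and Hspb8 higher, against 5 lower and none higher with library totals and 1 lower with limma-voom. Hspa1b, an inducible HSP70, went from 6.56 and 5.88 to 8.76 and 9.10 CPM in IPO13+/+ cells and from 5.65 and 5.23 to 4.40 and 4.61 CPM in IPO13-/- cells, a rise in one genotype and a fall in the other (interaction -0.80 ± 0.12, FDR = 0.0001). Hspa1b has a near-identical neighbour, Hspa1a, and the division of reads between the 2 genes is uncertain. Of 33 genes of the integrated stress response only Chac1, a glutathione-degrading enzyme, was called. It was higher before stress in IPO13-/- cells (7.51 and 6.83 CPM against 2.44 and 2.97 CPM) and differed less after it (9.22 and 9.31 against 6.83 and 6.24 CPM, interaction -0.90 ± 0.13, FDR = 6.7e-05). Of 25 genes of the unfolded protein response Herpud1 was lower and Dnajb9 higher, against 1 lower and none higher with limma-voom or after filterByExpr.

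Cytosolic ribosomal proteins had 8 called members of 83, all higher by small amounts (0.19 to 0.27), and the list median was 0.17. In untreated cells 72 of the 83 were lower in IPO13-/- cells, and after H2O2 9 were lower and 8 higher. A rise passed the test for 1 of the 83 genes in IPO13+/+ and for 71 in IPO13-/- cells. The interaction, which is the test of that difference, passed for the 8, for 3 with limma-voom, and for none with edgeR on library totals or after filterByExpr. It passed for 66 without IPO13+/+ untreated replicate 1, for 1 without IPO13+/+ H2O2 replicate 2, and for none without IPO13+/+ H2O2 replicate 1, without either untreated IPO13-/- library or without IPO13-/- H2O2 replicate 2. Of 82 nuclear subunits of oxidative phosphorylation 2 were called (Cox7a2l and Cox7a2, both higher), with a list median of 0.14. None was called with limma-voom, DESeq2 or edgeR on library totals or after filterByExpr, and there were 30 calls without IPO13+/+ untreated replicate 1, 1 without IPO13-/- H2O2 replicate 1 and none without any of the other 6. These lists are made of short transcripts, and differences between replicates moved with transcript length. Among 10999 genes with a mean of at least 100 counts, the median interaction went from 0.076 in the shortest class (up to 2026 bases) to -0.0038 in the longest (from 5325 bases), of 5 classes of equal size. Between replicates 2 and 1 the median log2 difference went from 0.065 to -0.10 over the same classes in untreated IPO13+/+, from 0.025 to -0.050 in untreated IPO13-/- and from 0.060 to -0.063 in treated IPO13-/- cells, and from -0.00053 to 0.0042 in treated IPO13+/+ cells. In the ribosomal list the replicates differed by a median of 0.096 in untreated IPO13+/+, 0.022 in treated IPO13+/+, 0.048 in untreated IPO13-/- and 0.11 in treated IPO13-/- cells. The part of length in the ribosomal and zinc finger results was not tested.

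Some lists held no called gene. None of 38 DNA repair, 32 DNA replication, 20 primed pluripotency, 60 clustered histone, 56 nucleoporin and nuclear transport receptor, 130 extracellular matrix and integrin, 55 clustered protocadherin and 151 olfactory receptor genes passed (edgeR's quasi-likelihood test), and neither did the 16 genes of IPO13 cargoes and factors. Over these lists 47 of 558 members had an unadjusted p below 0.05 in edgeR, against 2921 of all 19424 tested genes, and DESeq2 called none. Some of the lists could hardly give a call by either test, since no gene with a mean of under 10 counts was called. Only 5 of 151 olfactory receptor and 18 of 55 protocadherin genes reached a mean of 10 counts, and 6 of 60 histone genes a mean of 100. Other lists held 1 call each, a share near the 2.71% of all tested genes. These were Ccnb1 (0.22 ± 0.056, FDR = 0.031) of 32 mitotic genes (3.12%) and Bbc3 of 27 apoptosis genes (3.7%). Ndrg1 was called of 28 glycolysis and hypoxia genes (3.57%) and Phlda2 of 24 imprinted genes (4.17%). Of 24 actin and SRF targets Cyr61 and Tagln were called (8.33%), both lower. Among 22 WNT genes Tnfrsf19 was lower and Bambi higher, among 12 metallothionein and zinc genes Mt1, Mt2 and Slc39a4 were higher (none with limma-voom), and among 101 splicing factors Rbm38 and Srsf2 were higher. The 18 snoRNA host and nuclear RNA genes had Rpph1 higher and Snhg5 lower. In the families that follow, the share called lay between 0.602% and 2.99%, against 2.71% of all tested genes. Called were 10 of 347 solute carriers, 5 of 221 ion channels, 2 of 67 cytochrome P450 genes (Cyp1a1 and Cyp1b1), 4 of 665 numbered gene models and 19 of 1426 RIKEN clone genes.

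Of the genes that the study examined for a response that depends on IPO13, Fosb passed this test, and Neu3, Dok1, Ppard, Stox1, Rasd1, Il5, Snai3 and Lef1 did not. The criteria differ. The study took genes that passed an FDR below 0.05 and 2-fold in IPO13+/+ but not in IPO13-/- cells, without a test of the interaction. It also measured a subset by RT-qPCR and reported changes in IPO13+/+ but not in IPO13-/- cells. Those measurements were not examined here. Cyp2s1, a cytochrome P450 gene that the study took as a control whose response does not depend on IPO13, had an interaction of 0.0099 ± 0.087 (FDR = 1.0). Dok1, an adaptor protein gene, rose from 4.68 and 4.94 to 9.49 and 9.80 CPM in IPO13+/+ and from 5.27 and 5.46 to 9.59 and 9.80 CPM in IPO13-/- libraries (interaction -0.15 ± 0.11, FDR = 0.57). Ppard, a nuclear receptor gene, had an interaction of -0.11 ± 0.069 (FDR = 0.49) and Lef1, a WNT effector, one of 0.18 ± 0.13 (FDR = 0.55). For Rasd1 the value was -0.63 ± 0.27 (FDR = 0.24) at a mean of 1.44 CPM in treated IPO13+/+ cells, and for Stox1 -0.60 ± 0.64 (FDR = 0.75) at 0.066 to 0.456 CPM, so that differences of that size were not detectable at this depth. Il5 had at most 1 count in any library and gives no usable value. The genes of the transcription factors Sp1 (0.028 ± 0.075), Klf4 (-0.089 ± 0.055), Rreb1 (0.084 ± 0.078) and Nfatc2 (0.20 ± 0.094) were not called either, with FDR between 0.31 and 0.97.

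Genes outside the lists led several of the level classes. Among those in which the gap narrowed, Plaur, the receptor of urokinase, had the smallest FDR. It stood at 81.2 to 88.9 CPM in the 4 IPO13+/+ libraries, at 38.0 and 37.3 CPM in untreated and at 69.0 and 73.1 CPM in treated IPO13-/- cells (interaction 0.81 ± 0.064, FDR = 1e-08). Tnfrsf12a, the receptor of the cytokine TWEAK, differed in the untreated level only (0.80 ± 0.092, FDR = 5.3e-06). Podoplanin (Pdpn) fell in IPO13+/+ and rose in IPO13-/- cells without closing the gap (0.77 ± 0.096, FDR = 1.4e-05). Ripply3, a transcriptional corepressor, was level in IPO13+/+ libraries at 16.7 to 17.1 CPM and went from 8.99 and 9.23 to 15.4 and 14.7 CPM in IPO13-/- cells.

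Crossing over, from lower in untreated to higher in treated IPO13-/- cells, was led after Cyp1a1 and Cyp1b1 by Nab2, a corepressor of EGR factors, and Bhlhe40, a repressor of the circadian system. Bhlhe40 went from 40.2 ± 0.309 (SD, n = 2) to 63.8 and 63.1 CPM in IPO13+/+ and from 27.8 and 27.0 to 73.3 and 74.3 CPM in IPO13-/- libraries (interaction 0.77 ± 0.064, FDR = 2.2e-08). Its relative Bhlhe41 started from similar levels, 3.58 and 3.55 against 3.10 and 2.90 CPM, and rose by 1.76 on the log2 scale in IPO13+/+ and by 2.73 in IPO13-/- cells (0.97 ± 0.12, FDR = 1.2e-05). Dact2 (0.69 ± 0.062, FDR = 8.1e-08) and Dtx1 (0.74 ± 0.070, FDR = 1.6e-07), modulators of TGF-beta and Notch signalling, also crossed over. F3, the tissue factor that starts coagulation, differed in the treated level only, with 26.2 CPM in both treated IPO13-/- and 13.6 and 14.6 CPM in treated IPO13+/+ libraries (0.78 ± 0.11, FDR = 4.3e-05). Ankrd33b (0.81 ± 0.092), Fabp3, a fatty acid binding protein gene (0.42 ± 0.056), and Ptrf, which encodes a coat protein of caveolae (0.54 ± 0.072), were among those in which the gap widened.

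Some of the largest interactions were found among genes with 50 counts or more in both libraries of some group. They were those of Bdkrb2, a bradykinin receptor gene (1.65 ± 0.23, FDR = 4.9e-05), Dclk1 (1.41 ± 0.29, FDR = 0.005), Creb3l3 (1.12 ± 0.30, FDR = 0.044), Sema6a (1.11 ± 0.14, FDR = 1.7e-05) and Rtn4r (1.10 ± 0.18, FDR = 0.00038). All 5 were lower in untreated IPO13-/- cells, and Rtn4r also crossed over to a higher treated level. Over the 8 libraries Dclk1 had a mean of 47.6 counts and Creb3l3 of 49.4. Bdkrb2 had 0.489 and 0.403 CPM in untreated IPO13-/- and 1.18 and 1.28 CPM in untreated IPO13+/+ libraries, and 1.94 to 2.46 CPM in the 4 treated libraries. On the lower side, Nlrc5, a regulator of MHC class I genes, rose from 0.417 and 0.385 to 2.26 and 2.18 CPM in IPO13+/+ and from 0.739 and 0.628 to 1.64 and 1.79 CPM in IPO13-/- cells (-1.15 ± 0.25, FDR = 0.0094). Fam163b (-1.10 ± 0.23) rose in both genotypes from a higher untreated level in IPO13-/- cells and turned sign on the linear CPM scale, and Itgb1bp2 (-1.13 ± 0.21) and Aoc3 (-0.93 ± 0.20) had their lowest values in treated IPO13-/- cells. Jph2 (-1.12 ± 0.28, FDR = 0.025), Adm2 (-1.03 ± 0.27, FDR = 0.036), Dlx3 (-1.02 ± 0.26, FDR = 0.032) and Fbxo48 (-0.93 ± 0.22, FDR = 0.019) were all below 2 CPM in every library. The 201 genes that the next paragraph gives as called alike included Bdkrb2, Sema6a, Rtn4r and Itgb1bp2 but not the others of this paragraph.

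The number of calls moved with the test and with single libraries. Limma-voom, the method of the study, called 255 genes, 251 of them among the 527, and DESeq2 called 294, all among the 527. There were 201 genes called by edgeR, by limma-voom, by DESeq2, after filterByExpr, and with relative log expression factors, library totals and a replicate block alike, 163 of them higher and 38 lower, with 87 by the untreated level, 62 by the treated level and 52 with opposite signs. Without IPO13-/- untreated replicate 1 there were 73 calls and without IPO13-/- untreated replicate 2 there were 134, without either treated IPO13+/+ library 212 and 190, without either treated IPO13-/- library 296 and 268, and without either untreated IPO13+/+ library 1157 and 819. On the linear CPM scale 507 of the 527 genes kept their sign and 20 turned, 18 of them higher genes.

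**Figure D4:**
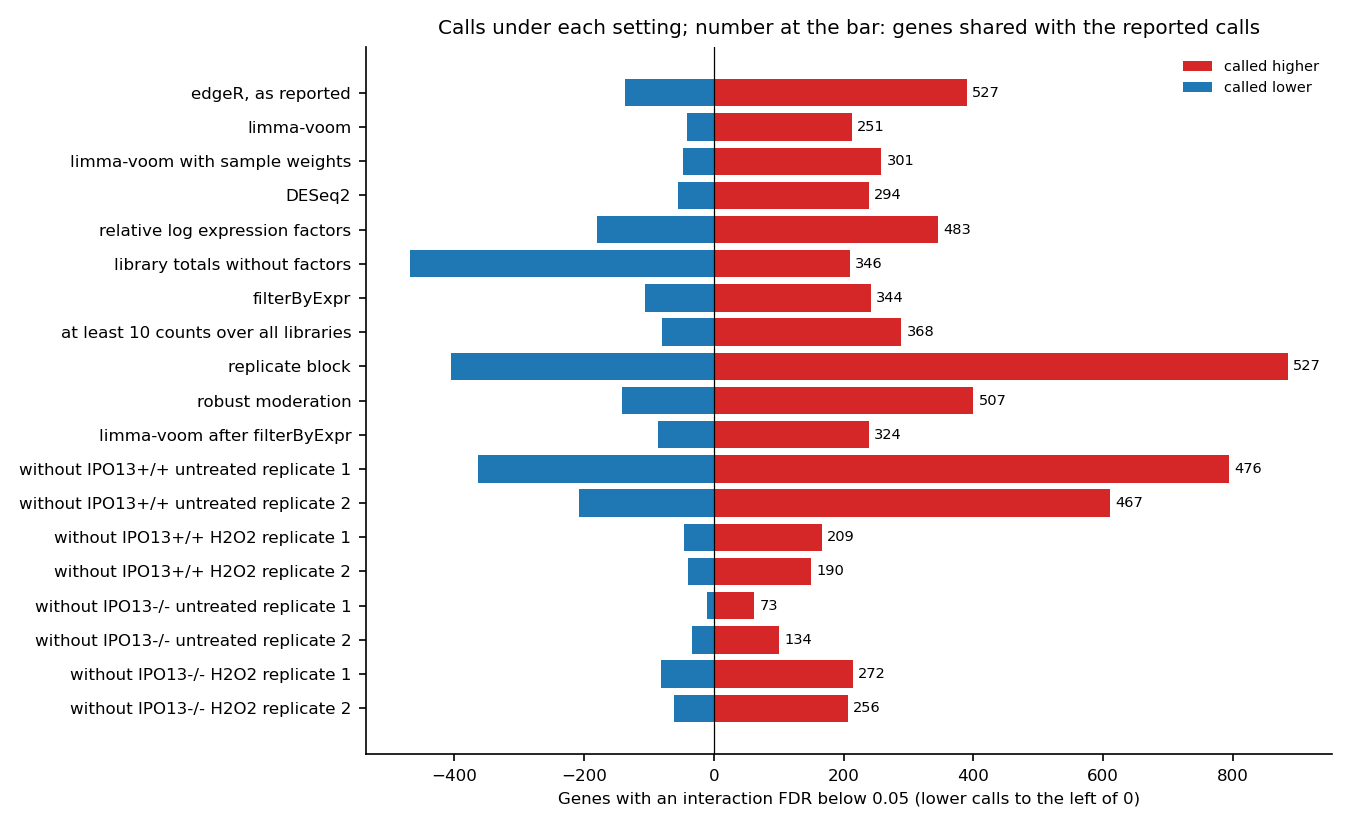
The bars give the number of genes with an interaction FDR below 0.05 under each setting, higher in red to the right of 0 and lower in blue to the left, and the number at each bar counts the genes shared with the 527 reported calls. Higher calls outnumber lower ones under every setting except library totals without factors, with 209 higher and 469 lower.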

How the data were processed

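RNA-seq was performed by the authors on 8 libraries of mRNA (TruSeq). Reads were mapped by the authors to mm10, and the submitters' processing notes list the aligner STAR 2.3.1 and the counter HTSeq. The authors deposited raw counts for 23420 gene symbols per library, and CPM, in which the authors divided each count by the library total. Only the counts were analysed, and the CPM printed were computed from them with TMM factors. Counting strand is not given in the sources used here.

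Groups and replicates were taken from the labels. The 19424 genes with at least 1 count were fitted with edgeR 4.0.16 (quasi-likelihood, TMM, 1 coefficient per group, all 8 libraries, R 4.3.3), and p-values were adjusted by Benjamini-Hochberg over all of them. The SE is the absolute log2 value divided by the square root of F. The study used Voom/Limma. Calls needed an FDR below 0.05. A floor of 3 counts (0.0407 to 0.0497 CPM, counting error only) was computed for each library and did not enter the calls. Replicates differed by more than sampling noise (chi-square per gene 2.26 to 15.0). Alternatives were limma 3.58.1 (voom, with and without sample weights), DESeq2 1.42.0, other scalings and filters, robust moderation, a replicate block and each library left out, where the lone library of a group was assumed to vary like the others.

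Named genes were the 10 largest interactions in each direction (both libraries of some group at 50 counts or more, same sign without each library), up to 3 called members per list, 5 per level class and 10 overall by smallest FDR, and 15 genes of the study. Genes named outside this rule were chosen after their values were seen. Symbols starting with a digit, numbered gene models and symbols turned into dates were counted and not named, and some list members are counted but not reported here by name. The members and the lists were chosen with earlier results of these data known. Positions, lengths and biotypes came from GENCODE M21 (GRCm38), promoters from RefSeq (GRCm38.p6). The procedure was tested on simulated data.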

Additional observations from a re-analysis of the deposited data

Results flagged for a closer look

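The interaction is itself the test of a difference between 2 groups' responses, so all 527 called genes, 390 higher and 137 lower, are of this kind. The 28 that reached 2-fold are given here with their interaction on the log2 scale (edgeR's quasi-likelihood test, FDR below 0.05). Higher in IPO13-/- cells were Cyp1a1 (3.92), Kcna2 (2.54), Cubn (2.43), a RIKEN clone gene (2.29), Cyp1b1 (2.05), Bdkrb2 (1.65), Ahrr (1.53), Dclk1 (1.41), Creb3l3 (1.12), Sema6a (1.11), Rtn4r (1.10), another RIKEN clone gene (1.04), and Dll1, Krtdap and Nppb (1.02 each). Lower were Scn4a (-2.61), Ano7 (-2.38), Sec16b (-2.17), Zfp174 (-1.55), Pitpnm3 (-1.53), Exd1 (-1.34), Nlrc5 (-1.15), Fosb (-1.14), Itgb1bp2 (-1.13), Jph2 (-1.12), Fam163b (-1.10), Adm2 (-1.03) and Dlx3 (-1.02).

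Several of these rest on few counts. Kcna2, a potassium channel gene, was counted 18 and 15 times before and 27 and 28 times after H2O2 in IPO13+/+ libraries, and 6 and 1 times before and 30 and 34 times after it in IPO13-/- libraries. Scn4a, a sodium channel gene, lay between 0.0714 and 0.852 CPM over the 8 libraries. Dll1, a Notch ligand, had more counts, with 17.5 and 16.6 CPM in treated IPO13+/+ and 33.8 and 31.4 CPM in treated IPO13-/- libraries from 2.07 to 2.91 CPM in untreated ones.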

How the results depend on the processing

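Against 390 higher calls there were 213 with limma-voom, 258 with limma-voom and sample weights, 239 with DESeq2, 209 with library totals, 242 after filterByExpr and 239 with limma-voom after filterByExpr, an alternative chosen after seeing the data. Against 137 lower calls there were 42, 48, 55, 469, 107 and 87 in the same order, and 80 with at least 10 counts over all libraries. Against 28 calls of 2-fold or more there were 18 with limma-voom, 11 with DESeq2 and 17 with limma-voom after filterByExpr. Without 1 library the higher calls ranged from 62 to 794, the lower from 11 to 363 and those of 2-fold or more from 7 to 39. The share by the untreated level (45.9%) was 52.0% with DESeq2, 41.4% with limma-voom after filterByExpr, 36.6% by size and 41.8% to 50.5% without 1 library. The share by the treated level (39.8%) was 44.4% with library totals, 32.3% by size and 23.3% to 40.9% without 1 library. Opposite signs (14.2%) made up 20.4% with limma-voom, 19.3% with sample weights, 10.6% with library totals, 19.2% after filterByExpr, 18.4% with at least 10 counts, 19.9% with limma-voom after filterByExpr and 8.47% to 27.4% without 1 library. Of the 105 called genes named by rule, 34 lost the call with limma-voom, 31 with DESeq2, 4 with relative log expression factors and 56 without IPO13-/- untreated replicate 1, and none changed sign. With relative log expression factors 4 of 45 list medians changed sign, with library totals 14.

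Replicates share only a number in the labels. The deviations of same-numbered replicates correlated across 10235 genes at 0.54, 0.30 and 0.25 in 3 pairs of groups and at -0.039, -0.06 and -0.0044 in the 3 pairs with treated IPO13+/+ cells. A replicate block gave 885 higher and 406 lower calls, with all 527 among them, 62 of 83 ribosomal, 20 of 82 oxidative phosphorylation and 16 of 33 NRF2 genes called, and shares of 50.2% by the untreated level and 8.52% with opposite signs.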
